A study of Rattus norvegicus with 138 samples.

Results

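The 8 genes described here are Mbp, Pmp22, Prx, Ngfr, Gap43, Sox10, Gdnf and S100b, genes of Schwann cells and of nerve repair. They were chosen by their symbols, and all 8 were among the 16181 gene symbols of the expression table. Their levels were followed through volumetric muscle loss (VML), the removal of a piece of muscle too large for the tissue to restore. All values are TPM (transcript counts scaled to a fixed sum per library), which take transcript length into account, so that levels of different genes can be set beside each other.

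Schwann cells are the glia of peripheral nerve. In an intact nerve they wrap axons in myelin, whose proteins include myelin basic protein (Mbp), peripheral myelin protein (Pmp22) and periaxin (Prx), a protein of the membrane that faces away from the axon. After an axon is cut, the Schwann cells beyond the cut are known to lower their myelin genes, to raise the low-affinity neurotrophin receptor p75 (Ngfr) and the growth-associated protein Gap43, and to release glial cell line-derived neurotrophic factor (Gdnf). Sox10 is the transcription factor that marks the lineage and S100b, a calcium-binding protein, is a classical marker of Schwann cells. Several of these genes are also used outside nerve. Pmp22 is made by fibroblasts and epithelia, S100b by cartilage and fat, and Mbp has a splice family made in leukocytes. Gap43 is also abundant in the regrowing axons themselves.

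RNA was extracted from whole tibialis anterior (TA) muscles of male inbred Lewis rats of about 4 months. A VML defect was made in the left TA with a 6 mm biopsy punch, and the muscle was left non-repaired or filled with autologous minced muscle graft (MMG) cut from the excised piece. Injured and contralateral TA muscles were taken at 3, 7, 14 and 28 days post injury (DPI), and some rats of both arms were labelled as running. Control muscles were both TA muscles of 2 rats without surgery, labelled as sham at day 0, so that the 4 control muscles came from 2 animals. The control rats carried another label prefix than all operated rats, and what the prefix stands for is not stated. The label prefix and the surgery cannot be told apart. Rats are named by the number of their label, which keeps the prefix TS5 where it has no leading zero.

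The non-repaired, non-running rats gave 3, 8, 4 and 4 injured muscles and 2, 4, 2 and 2 contralateral muscles at 3, 7, 14 and 28 DPI. The minced graft rats without running gave 7, 8, 4 and 4 injured and 2, 6, 2 and 2 contralateral muscles. The running rats gave 8, 4, 4 and 2 non-repaired and 6, 4, 4 and 2 graft injured muscles. Of the libraries with a group, 13 had fewer than 7000 symbols above 1 TPM and were dropped, and 116 libraries of 114 muscles from 78 rats were used. Groups of 2 muscles leave little room to judge spread, and the fits borrowed it from all 31 groups.

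Differences between groups are log2 fold changes on the log2(TPM + 1) scale, fitted with limma over 11328 genes, with Benjamini-Hochberg adjusted p-values over all of them. A gene is called when both an adjusted p under 0.05 and a log2 fold change of more than 1 in size are reached, the thresholds of the study's methods. On this scale the change of a gene under 1 TPM is understated. Sox10 was the only member whose mean did not exceed 1 TPM in any group, so that 7 of the 8 members were tested.

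Promoter sequences are given for Pmp22 and S100b, the members with the highest levels in injured muscle. The sequences are the 250 bases before the transcription start from RefSeq, build GRCr8, in which promoters of Prx, Gdnf and Mbp were also found. The values were quantified by the authors against build 6.0, so that these coordinates belong to the sequences and not to the measurements. Capitals mark a SOX core (ACAAAG or ACAATG), an AP-1 site (TGANTCA) or a TEAD site (CATTCC) on either strand.

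Pmp22, chr10:48294682-48294931, plus strand: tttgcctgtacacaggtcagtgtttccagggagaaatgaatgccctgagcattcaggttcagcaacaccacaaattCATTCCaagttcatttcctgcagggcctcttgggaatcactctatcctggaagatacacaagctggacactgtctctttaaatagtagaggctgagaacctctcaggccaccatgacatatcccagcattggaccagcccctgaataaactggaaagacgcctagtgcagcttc
S100b, chr20:12381082-12381331, minus strand: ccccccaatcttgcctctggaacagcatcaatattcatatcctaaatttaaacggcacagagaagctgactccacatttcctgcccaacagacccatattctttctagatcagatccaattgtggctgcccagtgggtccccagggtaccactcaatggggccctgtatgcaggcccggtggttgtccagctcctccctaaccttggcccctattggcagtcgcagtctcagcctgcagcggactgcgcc

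The Pmp22 window held 1 TEAD match on the plus strand, whose first base lay 174 bases before the start. Such a match was present in 12.06% of the 33469 promoters of the same length. The S100b and Gdnf windows held none of these motifs, the Prx window held 1 TEAD match at 49 bases before the start, and 1 of the 2 Mbp windows held 3 SOX core matches at 240, 197 and 162 bases before the start. ACAAAG was present in 16.3%, ACAATG in 11.08% and the AP-1 letters in 6.34% of promoters. These matches describe the letters of the windows only.

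Pmp22 was the most abundant member in all 31 groups. In control muscle its mean was 9.98 ± 3.18 TPM (SD, n = 4). Prx at 1.49 ± 0.518, Mbp at 1.46 ± 0.551 and S100b at 1.33 ± 0.287 TPM followed, with ranges that overlapped each other. Gap43 at 0.42 ± 0.149, Ngfr at 0.19 ± 0.0757 and Sox10 at 0.175 ± 0.0466 TPM were below them, and the ranges of Ngfr and Sox10 overlapped. Gdnf was listed at 0 in 3 of 4 control muscles and at 0.28 TPM in the other. Mean S100b was second from 3 DPI on in every injured group. In non-repaired injured muscle at 7 DPI the order by mean was Pmp22, S100b, Gap43, Mbp, Prx, Ngfr, Gdnf and Sox10, in which Gap43 and Mbp, Mbp and Prx, Prx and Ngfr, and Gdnf and Sox10 had overlapping ranges.

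**Figure D1:**
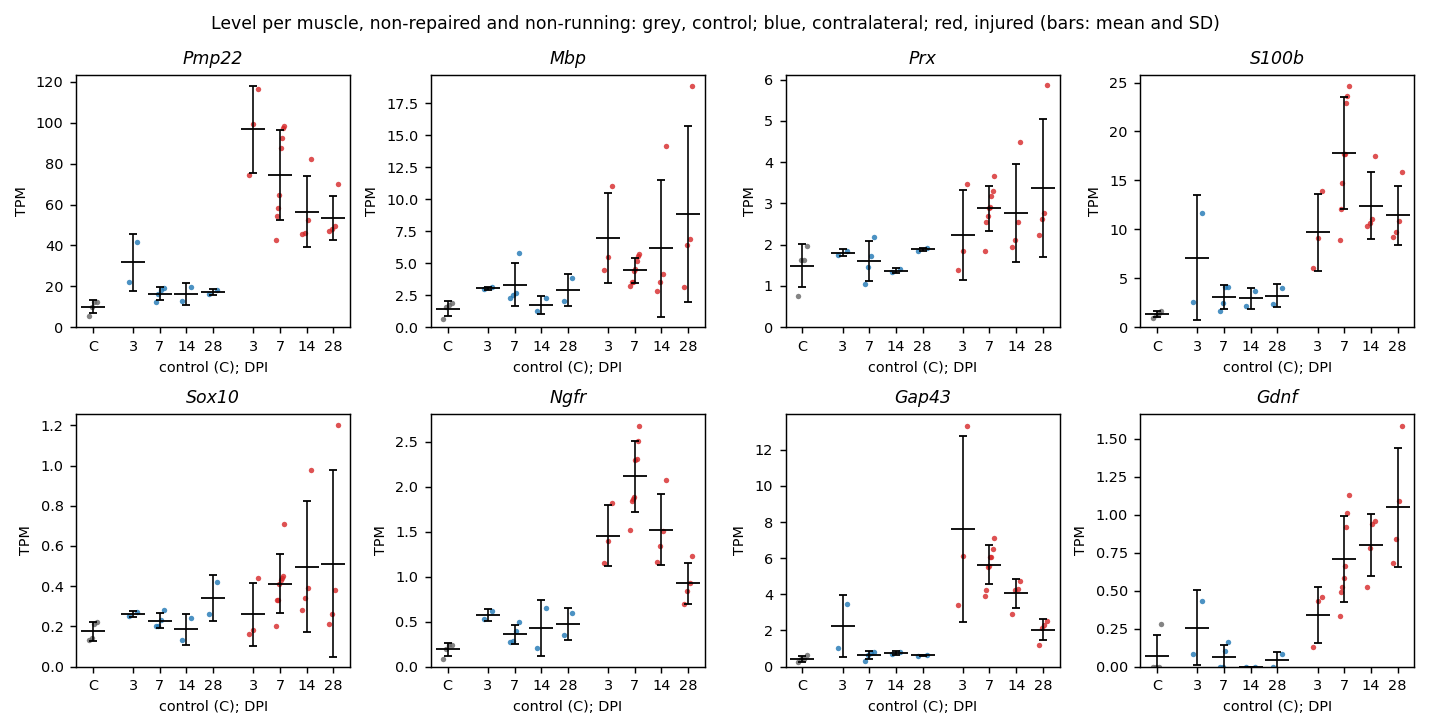
TPM of each member (y axis) in each muscle of the non-repaired, non-running rats, with control muscles in grey, contralateral muscles in blue and injured muscles in red by DPI (x axis); points are muscles, bars the mean and SD. Injured muscles lie above all control muscles for Pmp22, Mbp, S100b, Ngfr and Gap43 on every day, as they do for 69.9%, 66%, 58.9% and 60.2% of all tested genes by day, while mean Gdnf is 0.34 TPM at 3 DPI and 1.05 TPM at 28 DPI and mean Gap43 falls from 7.61 to 2.05 TPM.

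Against control muscle, 5 of the 7 tested members were called higher at 3, 7 and 14 DPI and 4 at 28 DPI, and none was called lower. Over all tested genes, 48.3%, 45.6%, 25% and 21.1% were called higher on those days. Without regard to a test, 69.9%, 66%, 58.9% and 60.2% of all tested genes were higher in every injured than in every control muscle, the shares against which the lack of overlap of single members below is to be read. The 4 comparisons share the control muscles. The median log2 fold change of all tested genes was itself 0.96, 0.92, 0.53 and 0.52, and 91.9%, 95%, 97.9% and 99.0% of all calls were higher. After median-of-ratios size factors, which centre each muscle on the genes it shares with the others, these medians were 0.12, 0.11, 0.04 and 0.05 and the higher share of calls was 59.2%, 60.6%, 72.8% and 78.4%. The tested members are therefore given on both scales below, Sox10 by its mean levels, and a value after size factors is the change relative to most genes of the muscle.

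Markers of other cells moved on the same days. The summed TPM of 7 macrophage markers was 13.1 to 32.2 in control muscle and 4084 to 5457 in non-repaired injured muscle at 3 DPI, 562.8 to 2731 at 7 DPI, 360.9 to 438.3 at 14 DPI and 207.2 to 738.0 at 28 DPI, and all 7 were called higher against control on every day, beside the shares of all genes above. All 6 fibroblast markers were also called higher on every day, with sums of 65.7 to 213.9 TPM in control and 5213 to 15010 TPM in injured muscle at 7 DPI. Of 6 mature myofibre markers, 6, 5, 2 and 0 were called lower at 3, 7, 14 and 28 DPI, beside 4.24%, 2.42%, 0.547% and 0.212% of all tested genes, and 6, 6, 3 and 4 after size factors, beside 16.6%, 14.0%, 5.83% and 3.12%. The part of these cells in the members' values was not tested. In whole muscle, fewer cells of a type and less RNA per cell cannot be told apart.

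Of the myelin protein genes, Pmp22 had the highest log2 fold change of the tested members at 3 DPI on the log2(TPM + 1) scale, while with a pseudocount of 0.1 TPM it was 3.31 and that of Gap43 3.72. Control muscles held 5.52, 9.87, 12.2 and 12.3 TPM, and non-repaired injured muscles held 74.3, 99.3 and 117 TPM at 3 DPI. At 7 DPI they held 42.6 at the lowest, 76.1 at the median and 98.6 at the highest TPM, at 14 DPI 45.4, 46.2, 52.7 and 82.1 TPM and at 28 DPI 46.9, 47.9, 49.3 and 69.8 TPM. Every injured muscle exceeded every control muscle, and the lowest injured value, 42.6 TPM at 7 DPI, was over 3 times the highest control value. Pmp22 was called higher on all 4 days (log2 fold change 3.19, SE 0.26, limma adjusted p = 2.29e-20 at 3 DPI, 2.78 at 7 DPI, 2.40 at 14 DPI and log2 fold change 2.35, SE 0.24, limma adjusted p = 1.71e-14 at 28 DPI). At 7 DPI the muscles of rats 011, 012, 019 and 020 held 87.6 to 98.6 TPM and those of rats TS5.105, TS5.106, TS5.125 and TS5.126 held 42.6 to 64.7 TPM, 2 ranges of rat numbers that did not overlap. After size factors Pmp22 was called on every day too, with log2 fold changes of 2.10, 1.76, 1.77 and 1.73.

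Mbp, which compacts the inner faces of the myelin membrane, was 0.65 to 1.86 TPM in control muscle. Injured muscles held 4.47, 5.48 and 11.01 TPM at 3 DPI, 3.23 at the lowest, 4.49 at the median and 5.72 at the highest TPM at 7 DPI, 2.87, 3.55, 4.16 and 14.2 TPM at 14 DPI and 3.15, 6.45, 6.88 and 18.9 TPM at 28 DPI. No injured muscle overlapped the controls, but 1 muscle stood far above the rest of its group at 3, 14 and 28 DPI. Mbp was called higher on all 4 days (log2 fold change 1.64, 1.16, 1.34 and 1.79, of which that at 7 DPI had SE 0.29 and limma adjusted p = 0.000184). Relative to most genes it was called at 28 DPI alone, with 1.41 (limma adjusted p = 0.000166), and was 0.85, 0.44 and 0.94 on the earlier days. The call at 7 DPI was lost with every library kept (0.89), and it fell to 0.98 without the right control muscle of rat 038, and that at 14 DPI to 0.90 without rat TS5.137.

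Prx, which links the Schwann cell membrane to its cytoskeleton, was not called on any day. It was 0.75, 1.62, 1.63 and 1.96 TPM in control muscle and 1.39, 1.84 and 3.48 TPM at 3 DPI. At 7 DPI injured muscles held 1.84 at the lowest, 2.9 at the median and 3.66 at the highest TPM, and at 28 DPI 2.23, 2.63, 2.77 and 5.87 TPM. The groups overlapped at 3, 7 and 14 DPI and not at 28 DPI. The log2 fold change was 0.35, 0.65, 0.58 and 0.77 in order of day, with limma adjusted p-values of 0.0619, 2.52e-05, 0.00144 and 3.43e-05. Its direction turned with the scaling, since relative to most genes it was -0.38 at 3 DPI (limma adjusted p = 0.0316) and -0.05 at 7 DPI, then 0.15 and 0.37.

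Single muscles were high for several of these genes together. The injured muscle of rat TS5.137 at 14 DPI held the highest Mbp (14.2 TPM), Prx (4.5 TPM), Sox10 (0.98 TPM) and S100b (17.5 TPM) of its group, and that of rat 073 at 28 DPI the highest Mbp (18.9 TPM), Prx (5.87 TPM), Sox10 (1.2 TPM) and S100b (15.9 TPM). At 3 DPI the muscle of rat 017 was highest for Mbp (11.01 TPM), Prx (3.48 TPM) and Sox10 (0.44 TPM) but not for S100b (9.09 TPM). At 7 DPI Mbp and Sox10 were highest in rat TS5.125, at 5.72 and 0.71 TPM, and Prx was highest in rat 011, at 3.66 TPM. Among contralateral muscles, that of rat TS5.127 in the graft arm at 7 DPI was highest for Mbp (8.99 TPM), Pmp22 (32.1 TPM), Prx (3.11 TPM), Sox10 (0.54 TPM) and S100b (6.52 TPM) of 6. Its Gap43 of 0.83 TPM lay inside the range of the other 5, 0.64 to 1.23 TPM.

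S100b had the highest log2 fold change of the tested members from 7 DPI on, on the log2(TPM + 1) scale and after size factors. With a pseudocount of 0.1 TPM it was 3.00 at 28 DPI, beside 2.98 for Gdnf. Control muscles held 0.96, 1.28, 1.44 and 1.64 TPM and injured muscles 6.06, 9.09 and 13.9 TPM at 3 DPI. The injured muscles held 8.92 at the lowest, 17.7 at the median and 24.6 at the highest TPM at 7 DPI, 10.4, 10.7, 11.1 and 17.5 TPM at 14 DPI and 9.21, 9.78, 10.9 and 15.8 TPM at 28 DPI. All injured muscles were above all control muscles. S100b was called on all 4 days, with log2 fold changes of 2.14, 2.95 (SE 0.28, limma adjusted p = 1.98e-16), 2.50 and 2.40, and after size factors with 1.31, 2.16, 2.08 and 1.99. The summed TPM of 4 chondrocyte markers, cells that also make S100b, was 1.37 to 3.24 in control muscle and 9.13 to 68.5 in injured muscle at 7 DPI, and that of 6 adipocyte markers was 92.2 to 325.7 and 466.2 to 1048. Acan, a cartilage proteoglycan, was at 0 in all control muscles. The part of these cells in the S100b values was not tested.

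Sox10 stayed low throughout. It was 0.13, 0.14, 0.21 and 0.22 TPM in control muscle, 0.16, 0.18 and 0.44 TPM in injured muscle at 3 DPI, 0.2 at the lowest, 0.42 at the median and 0.71 at the highest TPM at 7 DPI, 0.28, 0.34, 0.39 and 0.98 TPM at 14 DPI and 0.21, 0.26, 0.38 and 1.2 TPM at 28 DPI. The groups overlapped at 3, 7 and 28 DPI and were apart at 14 DPI. In a fit with no filter on low values its log2 fold changes were 0.10, 0.26, 0.33 and 0.32, with limma adjusted p-values of 0.555, 0.02, 0.015 and 0.0179, and none reached the fold threshold. After size factors its mean was 0.299 TPM in control and 0.193, 0.332, 0.510 and 0.555 TPM in injured muscle in order of day, so that at 3 DPI the direction turned with the scaling. Sox10 was above 1 TPM in 1 muscle, that of rat 073.

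Among the repair genes, Gap43 was called higher from 3 DPI on, with its highest mean on that day and its lowest at 28 DPI. Control muscles held 0.26, 0.39, 0.41 and 0.62 TPM and injured muscles 3.4, 6.1 and 13.3 TPM at 3 DPI. Later injured muscles held 3.91 at the lowest, 5.83 at the median and 7.14 at the highest TPM at 7 DPI, 2.93, 4.22, 4.29 and 4.75 TPM at 14 DPI and 1.22, 2.16, 2.31 and 2.51 TPM at 28 DPI. No injured muscle overlapped the controls. Gap43 was called on every day (log2 fold change 2.44, SE 0.28, limma adjusted p = 9.98e-13 at 3 DPI, then 2.21, 1.82 and log2 fold change 1.09, SE 0.26, limma adjusted p = 0.000196 at 28 DPI). After size factors it was called at 3, 7 and 14 DPI, with 1.83, 1.66 and 1.60, and was 0.87 at 28 DPI.

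Ngfr, the p75 receptor, was 0.08, 0.2, 0.24 and 0.24 TPM in control muscle. In injured muscle it was 1.15, 1.4 and 1.82 TPM at 3 DPI, 1.52 at the lowest, 2.1 at the median and 2.68 at the highest TPM at 7 DPI, 1.16, 1.34, 1.51 and 2.07 TPM at 14 DPI and 0.7, 0.84, 0.93 and 1.23 TPM at 28 DPI, with no overlap with the controls. It was called at 3, 7 and 14 DPI, with log2 fold changes of 1.04, 1.38 (SE 0.14, limma adjusted p = 3.81e-16) and 1.07, and was 0.69 at 28 DPI (limma adjusted p = 6.94e-05). After size factors the 7 DPI value alone was called, at 1.04, beside 0.69, 0.98 and 0.60 on the other days. The call at 3 DPI was lost without the injured muscle of rat 017 (0.94) or without the right control muscle of rat 038 (0.99), and that at 14 DPI without rat TS5.137 (0.97).

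Gdnf, a survival factor for motor neurons, had a higher mean in injured muscle on each later day, as had Sox10 at its lower level. Injured muscles held 0.13, 0.43 and 0.46 TPM at 3 DPI, 0.33 at the lowest, 0.62 at the median and 1.13 at the highest TPM at 7 DPI, 0.52, 0.78, 0.94 and 0.96 TPM at 14 DPI and 0.68, 0.84, 1.09 and 1.58 TPM at 28 DPI. From 7 DPI every injured muscle was above every control muscle, at levels near 1 TPM. Its log2 fold changes of 0.32, 0.66, 0.75 and 0.93 had limma adjusted p-values of 0.113, 6.77e-05, 0.000149 and 5.29e-06 and did not reach the fold threshold. After size factors they were 0.20, 0.50, 0.74 and 0.93, none called. With a pseudocount of 0.1 in place of 1 TPM they were 1.55, 2.45, 2.66 and 2.98, all called. The call at 28 DPI was also gained without the left control muscle of rat 037 (1.01), the one control above 0, or without rat 073 (1.01).

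**Figure D2:**
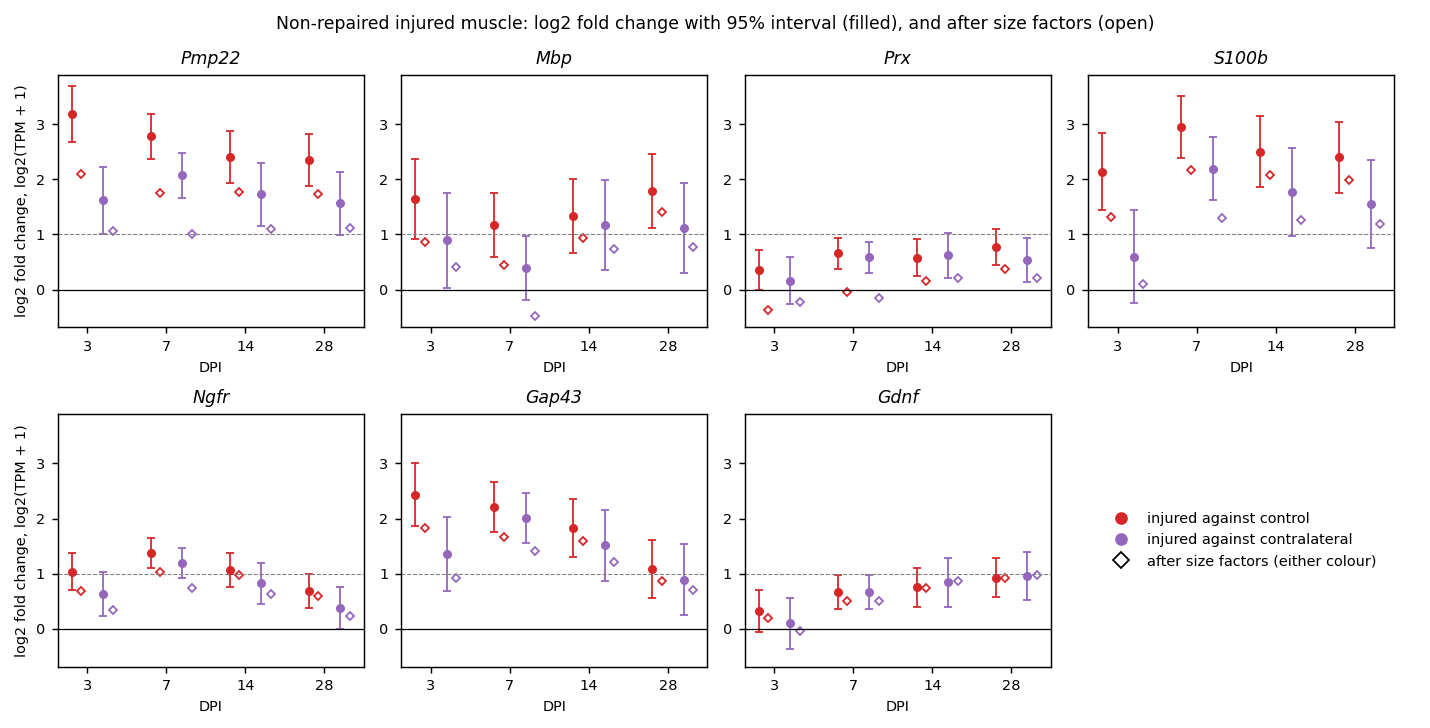
Log2 fold change on the log2(TPM + 1) scale (y axis) of 7 members by DPI (x axis) in non-repaired injured muscle, against control in red and against contralateral muscle in purple; filled points carry the 95% interval and open diamonds give the same value after size factors. Pmp22 and S100b lie above 1 (dashed line) against control on both scales on every day, Prx crosses 0 between the scales at 3 and 7 DPI in both comparisons, and against contralateral muscle Mbp crosses 0 at 7 DPI (0.39 and -0.48 after size factors) and Gdnf at 3 DPI (0.10 and -0.04).

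Against the contralateral muscle of the same day, 2, 4, 4 and 3 of the 7 members were called, all higher, beside 38.2%, 47.4%, 21.1% and 13.3% of all tested genes called in either direction. Pmp22 was called on all 4 days, with log2 fold changes of 1.62, 2.07, 1.73 and 1.56, and was also called on all 4 after size factors, with 1.05, 1.01, 1.10 and 1.12. The contralateral muscles of 7 DPI were all of rats TS5.105, TS5.106, TS5.125 and TS5.126. The injured muscles of that day also included rats 011, 012, 019 and 020, whose Pmp22 was higher, so that rat number range and injury are partly mixed. S100b was called at 7, 14 and 28 DPI on both scales, with 2.19, 1.76 and 1.56 on TPM as deposited. Gap43 was called at 3, 7 and 14 DPI (1.36, 2.02 and 1.51), Ngfr at 7 DPI (1.19) and Mbp at 14 and 28 DPI (1.17 and 1.12). Of these, the calls of Gap43 at 3 DPI (0.92), of Ngfr (0.74) and of Mbp (0.73 and 0.77) were lost after size factors. Mbp at 7 DPI turned direction between the scales, 0.39 on TPM as deposited and -0.48 after size factors, with no call on either. The higher share of all calls fell from 84.5%, 95.8%, 99.2% and 98.4% to 60.5%, 59.3%, 73.5% and 82.7%.

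At 14 DPI all 8 members, Sox10 included, were higher in each of the 4 injured muscles than in both contralateral muscles, as were 73.1% of all tested genes. At 3, 7 and 28 DPI this held for 3, 5 and 6 of the 8 members and for 59.7%, 67% and 67.4% of all tested genes. Mbp at 14 DPI was 1.25 and 2.27 TPM in contralateral muscle and 2.87 to 14.2 TPM in injured muscle. Its calls against contralateral muscle rested on single muscles, and were lost with every library kept or with the compared groups fitted alone. At 14 DPI the value was 0.73 without the injured muscle of rat TS5.137 and 0.90 without the contralateral muscle of rat TS5.133. At 28 DPI it was 0.70 and 0.79 without the injured or the contralateral muscle of rat 073. Without that contralateral muscle S100b at 28 DPI was 1.27 at a limma adjusted p of 0.0505. At 14 DPI Ngfr, 0.82 with all muscles, was called at 1.05 without the contralateral muscle of rat TS5.129.

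At 28 DPI Gap43 (0.89) and Gdnf (0.96) were just under the fold threshold. Gap43 was called at 1.04 without the injured muscle of rat 082. Gdnf was called at 1.00 without that muscle, at 1.05 without the injured and at 1.01 without the contralateral muscle of rat 073.

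The contralateral muscles were not at the level of the controls at 3 DPI. Pmp22 was 21.9 and 41.6 TPM, S100b 2.59 and 11.7 TPM and Gap43 1.01 and 3.44 TPM in the 2 non-repaired contralateral muscles, all above the highest control muscle, as were Mbp, Ngfr and Sox10, and 60.2% of all tested genes. Pmp22, S100b and Gap43 were called higher against control (Pmp22 1.56, S100b 1.54 and Gap43 1.08, with limma adjusted p-values of 2.01e-05, 0.00137 and 0.0046), beside 6.43% of all tested genes, and the higher share of all calls was 99.2% and 84.4% after size factors. In the contralateral muscles of all 4 arms at 3 DPI, 8 muscles, Pmp22 was 19.3 to 41.6 TPM with a median of 31.2 TPM, S100b was 2.59 to 11.7 TPM with a median of 6.24 TPM and Gap43 was 0.74 to 3.44 TPM. At 14 DPI the 8 contralateral muscles held 12.6 to 19.9 TPM of Pmp22, and at 28 DPI the 4 held 14.0 to 18.1 TPM.

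For Pmp22, S100b and Gap43 the muscle of rat 010 was the higher of the 2. All 3 calls were lost when every library was kept or when the compared groups were fitted alone. Without it S100b was 0.63 and Gap43 0.51 against control and neither was called, while Pmp22 remained called. Against the injured muscles of 3 DPI, S100b was 0.60 (limma adjusted p = 0.199) with both contralateral muscles and 1.51 without that of rat 010. Gap43 against contralateral muscle was 0.79 without the contralateral muscle of rat 017 and 0.90 without the injured muscle of rat 010, neither called, and without the latter Mbp was called at 1.12. After size factors Pmp22 (1.05) and S100b (1.20) were called against control and Gap43 (0.91) was not. All 6 fibroblast and 6 of 7 macrophage markers were called higher in the same contralateral muscles, with sums of 526.3 to 1194 TPM and 62.2 to 174.6 TPM, and their part was not tested. At 7, 14 and 28 DPI no member was called in contralateral muscle, where 0.803%, 0.715% and 0.185% of all genes were, although 3, 1 and 2 of the 7 had an unadjusted p under 0.05, and 4, 3 and 3 after size factors, where none was called either. On these days 2, 3 and 5 of the 8 members lay above every control muscle (Mbp and Ngfr at 7 DPI, Pmp22, Gap43 and S100b at 14 DPI and Mbp, Pmp22, Ngfr, Sox10 and S100b at 28 DPI), as did 7.43%, 13.1% and 17.8% of all tested genes.

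Within non-repaired injured muscle, 1 of 28 tests between days was called, beside 7.34%, 6.82%, 0.459% and 28.8% of all tested genes for 7 against 3, 14 against 7, 28 against 14 and 28 against 3 DPI. The higher share of all calls went from 10.6% to 60.9% for 14 against 7 DPI and from 15.7% to 39.8% for 28 against 3 DPI after size factors. Gap43 fell by 1.35 on the log2 scale between 3 and 28 DPI (SE 0.28, limma adjusted p = 2.1e-05), where 24.3% of all tested genes were called lower and the median of all genes was -0.44. After size factors it was -0.96 (limma adjusted p = 0.00165), and without the 3 DPI muscle of rat 010 it was -0.90. Pmp22 was -0.84 between the same days (limma adjusted p = 0.00258), and was called at -1.01 without the 3 DPI muscle of rat 018, but was -0.37 after size factors. Gdnf moved the other way, by 0.60 (limma adjusted p = 0.00448) and by 0.73 after size factors. S100b was 0.82 between 3 and 7 DPI (limma adjusted p = 0.0318), under the fold threshold, and 1.09 without the 3 DPI muscle of rat 010. Prx was 0.42 between 3 and 28 DPI (limma adjusted p = 0.0329), and 0.74 after size factors. Mbp had no adjusted p under 0.05 between any of these days.

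With minced graft, Pmp22 and Gap43 were called higher against the contralateral muscle on all 4 days, and Mbp on none. Of the 7 members, 3, 4, 4 and 4 were called at 3, 7, 14 and 28 DPI, all higher, beside 44%, 46.2%, 26.1% and 19.1% of all genes. The higher share of all calls was 84.6%, 92.7%, 98% and 98.4%, and 57.8%, 60.8%, 67.4% and 74.4% after size factors. Pmp22 held 99.98 at the lowest, 111.8 at the median and 146.6 at the highest TPM at 3 DPI and 39.1, 45.7, 56.9 and 58.2 TPM at 28 DPI. The contralateral muscles held 29.6 and 31.3 TPM at 3 DPI and 13.98 and 14.98 TPM at 28 DPI. Pmp22 was called on every day, at 1.93, 2.09, 1.70 and 1.70, and after size factors too (1.22, 1.16, 1.02 and 1.14). Gap43 was called on every day at 1.60, 1.62, 1.21 and 1.22, Ngfr at 3, 7 and 14 DPI at 1.04, 1.23 and 1.08, and S100b at 7, 14 and 28 DPI at 2.13, 1.60 and 1.74. After size factors all Ngfr calls and those of Gap43 at 7, 14 and 28 DPI (1.00, 0.89 and 0.97) were lost, the first by falling just under the threshold. Mbp turned direction between the scales at 7, 14 and 28 DPI, from 0.37, 0.28 and 0.32 to -0.39, -0.25 and -0.10, with no call. Without the contralateral muscle of rat TS5.131 Gap43 at 14 DPI was 0.66, without that of rat 013 Ngfr at 3 DPI was 0.82, and without that of rat 014 S100b at 3 DPI, 0.72 with all muscles, was called at 1.10.

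Gdnf was called in 1 comparison of the series as fitted, graft injured against contralateral muscle at 28 DPI (log2 fold change 1.37, SE 0.22, limma adjusted p = 2.18e-07, 1.27 after size factors). The 4 graft muscles held 0.66, 1.32, 3.24 and 3.79 TPM, the 4 non-repaired muscles of that day 0.68, 0.84, 1.09 and 1.58 TPM and the graft contralateral muscles 0 and 0.32 TPM. The graft values spread widely and their lowest lay below all 4 non-repaired muscles. Mbp in the same 4 graft muscles was 1.88, 2.51, 2.56 and 4.55 TPM against 3.15, 6.45, 6.88 and 18.9 TPM in non-repaired muscle, with overlapping ranges.

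Set directly against non-repaired injured muscle, no member was called with graft on any day by limma, where 0.00883%, 0.0883%, 0.0265% and 0% of all tested genes were called. Of 28 tests, 4 had an unadjusted p under 0.05, and 4 after size factors, where none was called either. They were Ngfr at 3 DPI (0.32, 95% interval 0.01 to 0.62) and, at 28 DPI, Mbp (-1.15, -1.82 to -0.48), Gdnf (0.56, 0.20 to 0.92) and Prx (-0.35, -0.68 to -0.02). After size factors Mbp at 14 DPI took the place of Ngfr. At 7 DPI, with 8 muscles in each arm, the intervals were -0.10 to 0.56 for Pmp22, -0.39 to 0.54 for S100b, -0.54 to 0.20 for Gap43 and -0.12 to 0.32 for Ngfr, so that a graft effect past the fold threshold lay outside each of them. Gap43 at 28 DPI was the only member without overlap between the arms, at 2.58 to 3.06 TPM with graft and 1.22 to 2.51 TPM without (0.32, limma adjusted p = 0.999), where 0.803% of all tested genes were likewise higher without overlap.

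**Figure D3:**
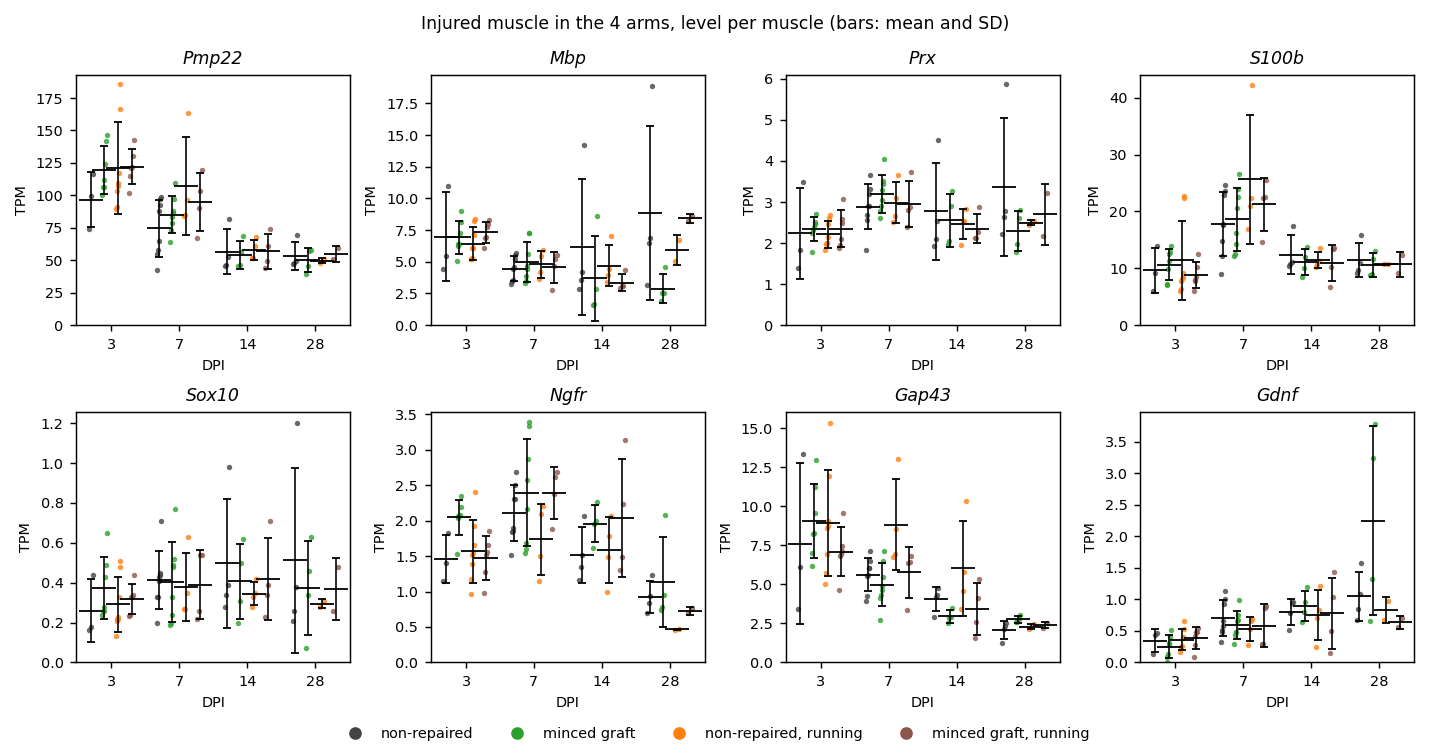
TPM of each member (y axis) in each injured muscle by DPI (x axis) in the 4 arms, non-repaired in dark grey, minced graft in green, non-repaired with running in orange and graft with running in brown; points are muscles, bars the mean and SD. At 28 DPI the 4 graft muscles spread from 0.66 to 3.79 TPM of Gdnf, and mean Gap43 is lower at 28 DPI than on any other day in each of the 4 arms.

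Running was compared with no running in injured muscle of each arm and day. No member was called in any of the 8 comparisons by limma, on TPM as deposited or after size factors, where 0.0441%, 0%, 0.0177% and 0.0177% of all tested genes were called in the non-repaired and 0%, 0%, 0% and 0% in the graft arm at 3, 7, 14 and 28 DPI. Of 56 tests, 6 had an unadjusted p under 0.05, and 6 after size factors. At 7 DPI in non-repaired rats Gap43 was 6.76, 6.97, 8.56 and 13.1 TPM with running and 3.91 to 7.14 TPM in 8 muscles without (0.54, limma adjusted p = 0.174). Pmp22 was 84.2, 84.9, 96.1 and 163 TPM with running and 42.6 to 98.6 TPM without (0.52, limma adjusted p = 0.16), and both genes overlapped between the groups. The running muscles were all of rats 003, 004, 031 and 032. Those without running included rats TS5.105, TS5.106, TS5.125 and TS5.126, which held the lower Pmp22 values, so that running and rat number range are mixed here.

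At 28 DPI the 2 running graft muscles held 0.56 and 0.71 TPM of Gdnf and 8.19 and 8.65 TPM of Mbp, against 0.66, 1.32, 3.24 and 3.79 and 1.88, 2.51, 2.56 and 4.55 TPM in the 4 non-running graft muscles. The fold changes were -0.86 for Gdnf (limma adjusted p = 0.1) and 1.32 for Mbp (limma adjusted p = 0.23). Without the injured muscle of rat 075, which had the lowest Gdnf of the 4, Gdnf was called at -1.15. The remaining tests with an unadjusted p under 0.05 were of Ngfr, in graft rats at 3 DPI (-0.30) and in non-repaired rats at 28 DPI (-0.39), where the running muscles held 0.46 and 0.47 TPM and the others 0.7, 0.84, 0.93 and 1.23 TPM. Tested as an interaction, a difference of the graft effect by running was called for no member (0 of 28, beside 0.00883%, 0%, 0% and 0.00883% of all genes by day, 2 at an unadjusted p under 0.05, and 2 after size factors). They were Gdnf (-0.72, limma adjusted p = 1) and Mbp (1.61, 95% interval 0.45 to 2.77, limma adjusted p = 1), both at 28 DPI, where each running group held 2 muscles.

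Among running rats Pmp22 and Gap43 were higher in injured than in contralateral muscle in both arms. In the non-repaired arm 2, 3 and 3 of 7 members were called at 3, 7 and 14 DPI, beside 40.1%, 43.1% and 26.3% of all genes, and in the graft arm 2, 4 and 4, beside 44.9%, 44.3% and 24.2%. Of all calls, 83.9%, 92.6% and 97.5% were higher in the non-repaired and 84.5%, 90.3% and 97.2% in the graft arm, and after size factors 58.5%, 60.4% and 65.7%, and 58.2%, 58.1% and 66.8%. Pmp22 and Gap43 were called in all 6 comparisons, with log2 fold changes of 1.66 to 2.27 and 1.31 to 2.11. S100b was called in the 4 of 7 and 14 DPI (1.57 to 1.93) and Ngfr in the graft arm at 7 and 14 DPI (1.19 and 1.13). With single muscles left out at 7 DPI, Gap43 in the non-repaired arm was 1.34 to 2.73 and Pmp22 in the graft arm 1.11 to 2.345. After size factors the calls of Pmp22 and S100b at 7 DPI were lost in both arms, with Pmp22 at 0.81 and 0.88. Both Ngfr calls and that of Gap43 in the graft arm at 7 DPI (0.81) were lost too, and Mbp in the non-repaired arm at 7 DPI was called lower, at -1.20 (limma adjusted p = 0.00699). In each arm the 2 contralateral muscles of running rats at 7 DPI differed from each other, with S100b at 2.82 and 13.2 TPM in the graft arm and Mbp at 3.04 and 13.5 TPM in the non-repaired arm. Without the contralateral muscle of rat 003, the lower for Mbp, Mbp was called lower in injured muscle, at -1.34 in place of -0.42, and without that of rat 008, the lower for S100b, S100b was 0.63. In the graft arm at 14 DPI Ngfr was 0.97 without the injured muscle of rat TS5.136 and 0.92 without the contralateral muscle of rat TS5.132, neither called. Other calls were gained. At 3 DPI Mbp was called at 1.09 in the non-repaired arm without the contralateral muscle of rat 001, and in the graft arm Mbp at 1.26 and S100b at 1.35 without that of rat 006. Ngfr in the non-repaired arm at 7 DPI was called at 1.08 without the contralateral muscle of rat 003 and at 1.03 without the injured muscle of rat 032.

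The members also differed in which other genes they followed across the 31 group means, given here as a description of points that share libraries and scaling. Pmp22 and Gap43 were the pair with the highest Pearson r, 0.968, and Mbp and Gdnf the pair with the lowest, 0.358. Mbp was closest to Mal, a myelin and lymphocyte proteolipid, at an r of 0.911, then to Fabp4 (0.807) and Efemp1 (0.804). Pmp22 was closest to Id2, a repressor of differentiation, at 0.989, with C1r and Irak3 at 0.988 each. Gap43 was closest to C1qb, a complement subunit of macrophages, at 0.98, then to Cd48 and Ifitm3 (0.979 each). S100b was closest to Serping1 (0.976), Serpinf1 (0.975) and Igfbp6 (0.972), Ngfr to Fndc3c1 (0.978), Dll1 (0.976) and Mboat2 (0.975), Prx to Clmn (0.924), Hoxd4 (0.913) and Hoxb3 (0.911), and Gdnf to Gdf11 (0.953), RGD1309350 (0.93) and Kcnj3 (0.928).

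Other genes of the same pathways were read as lists of which the 8 members are not part. Of 22 myelin and myelinating Schwann cell genes, 14 were tested, and 6, 6, 4 and 6 were called higher against control at 3, 7, 14 and 28 DPI, with none lower, beside 48.3%, 45.6%, 25% and 21.1% of all tested genes. Their median log2 fold changes of 0.68, 0.83, 0.76 and 0.87 were below the median of all tested genes at 3 and 7 DPI and above it later. After size factors 4, 5, 4 and 4 were called higher, beside 24.2%, 21.6%, 15.6% and 11.4% of all tested genes. The largest were Lpar1, a lysophosphatidic acid receptor (3.16 at 7 DPI), Cadm4, an adhesion molecule between axon and myelin (3.06), and Cnp, a myelin enzyme (2.90 at 3 DPI), all 3 of which were called on every day, on both scales. Egr2, the transcription factor that drives myelination, was 1.66, 1.71, 0.74 and 0.53, with calls at 3 and 7 DPI on both scales. Ncmap, a protein of non-compact myelin, was -0.24 and -0.29 at 3 and 7 DPI and 0.55 at 28 DPI, with no call.

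Mobp, listed with the myelin genes, differed between control muscle and the contralateral muscle of the operated rats. It was 0.04 to 0.39 TPM in control muscle, 2.15 to 2.4 TPM in contralateral muscle at 3 DPI, 0.84 to 2.23 TPM at 7 DPI, 1.52 to 1.66 TPM at 14 DPI and 2.12 to 2.26 TPM at 28 DPI, with no overlap, as for 60.2%, 7.43%, 13.1% and 17.8% of all tested genes. It was called higher in contralateral against control muscle on all 4 days (1.41, 1.06, 1.07 and 1.37, and 1.42 to 1.65 after size factors), while injured muscle was -0.95, -0.30, 0.13 and -0.18 against contralateral muscle, with no call on TPM as deposited and a lower call at 3 DPI (-1.23) after size factors. Here too the label prefix and the surgery cannot be told apart.

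Of 20 repair and non-myelinating Schwann cell genes 11 were tested, and 7, 8, 6 and 4 were called higher against control at 3, 7, 14 and 28 DPI, with none lower and medians of 2.16, 1.80, 1.01 and 0.96. After size factors 6, 5, 5 and 4 were called higher. The shares of all tested genes called higher on these days were 48.3%, 45.6%, 25% and 21.1%, and 24.2%, 21.6%, 15.6% and 11.4% after size factors, for this list and for those that follow. Of the 9 genes not tested, 8 were in the table, among them Shh, Sox2, Gfap, Fabp7, Cdh19 and Olig1, and had means of at most 0.6 TPM in the control, injured and contralateral groups of non-repaired, non-running rats. Nrg1, the neuregulin ligand, and Aatk, a kinase, were not called on any day, at 0.37 and 0.02 at 3 DPI and -0.39 and -0.55 after size factors. Tnc, the matrix protein tenascin C, was 7.05 at 7 DPI, from a mean of 0.205 TPM in control to 160.9 TPM, and Ncam1, an adhesion molecule that denervated muscle fibres also make, was 5.48, from 1.90 to 136.6 TPM. Erbb3, the neuregulin receptor of Schwann cells, was highest at 3 DPI at a mean of 23.7 TPM against 0.195 TPM in control (4.35), then 2.86, 1.85 and 1.19, and its partner Erbb2 was 2.63, 3.29, 2.69 and 3.14. These 4 genes were called on every day on both scales. Jun, the transcription factor known for the repair state, was 0.84, 1.03, 0.66 and 0.88, called at 7 DPI alone, and was -0.29, -0.05, -0.02 and 0.21 after size factors, with no call and a turn of direction on the first 3 days.

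Of 19 neurotrophic factors and receptors 16 were tested, and 5, 6, 4 and 5 were called higher and 0, 1, 1 and 1 lower at 3, 7, 14 and 28 DPI. After size factors the counts were 3, 2, 1 and 2 higher and 5, 4, 2 and 1 lower, with more lower than higher calls at 3, 7 and 14 DPI and not at 28 DPI. Of all tested genes, 4.24%, 2.42%, 0.547% and 0.212% were called lower by day, and 16.6%, 14.0%, 5.83% and 3.12% after size factors. Nrtn, neurturin, a relative of Gdnf, was the gene called lower, from a mean of 9.38 TPM in control to 2.35 TPM at 7 DPI (-1.67, -2.59 after size factors) and 3.99 TPM at 28 DPI (-1.13). Gfra1, the co-receptor of Gdnf, was 0.62, 1.95, 1.38 and 1.00, called at 7, 14 and 28 DPI, and at 7 and 14 DPI after size factors. Ret, the signalling receptor of Gdnf, was 0.36, 0.96, 1.00 and 0.92, with a call at 14 DPI on TPM as deposited and none after size factors. Artn, artemin, was called at 3, 7 and 28 DPI (1.70, 1.15 and 1.11), and Cntfr, the receptor of ciliary neurotrophic factor, at 28 DPI at 1.84, from 10.5 TPM in control to 41.3 TPM.

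Of 12 axonal growth and neuronal cytoskeleton genes 7 were tested, and 7, 6, 5 and 4 were called higher against control, with none lower, and 6, 5, 4 and 3 after size factors. Marcksl1, a growth cone protein made in many cells, was 4.24, 4.25, 3.14 and 2.25 by day, and Tubb3, a neuronal tubulin, 3.48, 2.46, 1.17 and 0.48, the last not called. Marcks was called on every day on both scales, and Basp1, like Gap43 a protein of the growth cone membrane, was 2.80 at 3 DPI and 1.52 at 28 DPI. Of 6 perineurial and endoneurial cell genes 5 were tested, and 3, 3, 2 and 2 were called higher, and 2, 1, 0 and 0 after size factors, led by Slc2a1, the glucose transporter of the perineurium and of many other cells (3.48 at 3 DPI).

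**Figure D4:**
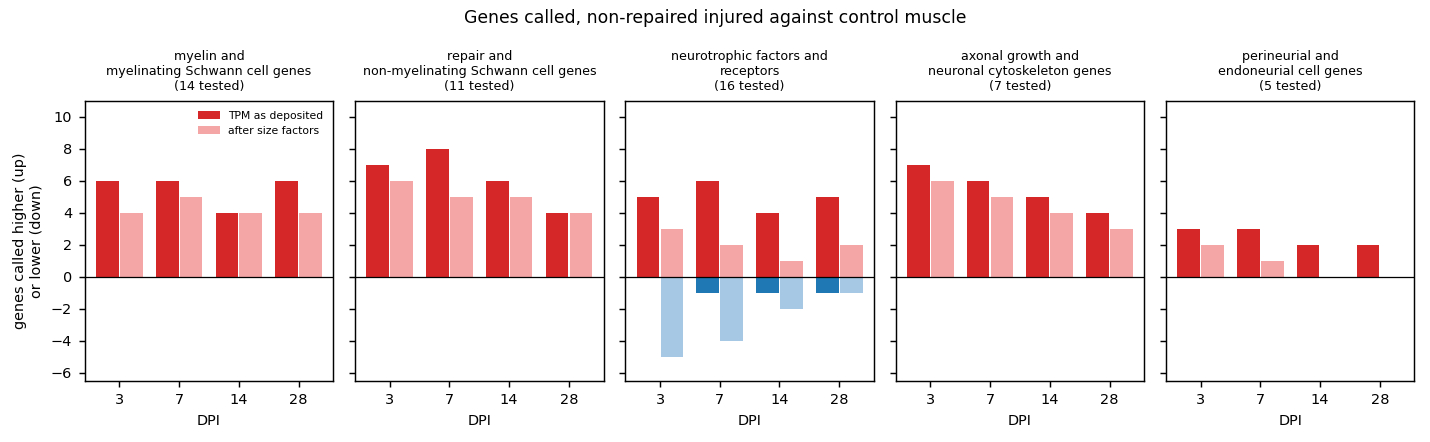
Number of tested genes (y axis) of 5 lists called higher (bars up) or lower (bars down) in non-repaired injured against control muscle by DPI (x axis), on TPM as deposited in the dark colours and after size factors in the pale ones. The axonal list has 7 genes called higher at 3 DPI and 4 at 28 DPI and the repair list 8 at 7 DPI and 4 at 28 DPI, while the share of all tested genes called higher goes from 48.3% at 3 DPI to 21.1% at 28 DPI. The neurotrophic list has more genes called lower than higher after size factors at 3, 7 and 14 DPI. Of all tested genes, 16.6%, 14.0% and 5.83% are then called lower and 24.2%, 21.6% and 15.6% higher.

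In the graft against non-repaired comparisons 1 gene of these 5 lists was called, Cadm4 at 7 DPI, at 1.03 (limma adjusted p = 9.26e-05), and it was 0.90 and not called after size factors. It was named after its value was seen. Of the remaining marker lists, 4, 5, 4 and 3 of 6 endothelial, 4, 4, 4 and 5 of 5 regenerating myogenic, 2, 2, 2 and 5 of 5 adipocyte, 3, 4, 4 and 3 of 5 smooth muscle, 1, 2, 2 and 0 of 3 chondrocyte and 0, 1, 1 and 0 of 2 melanocyte genes tested were called higher against control at 3, 7, 14 and 28 DPI, beside 48.3%, 45.6%, 25% and 21.1% of all tested genes. After size factors the counts were 1, 0, 0 and 0 endothelial, 2, 4, 4 and 3 regenerating myogenic, 1, 1, 1 and 4 adipocyte, 2, 3, 1 and 0 smooth muscle, 0, 2, 2 and 0 chondrocyte and 0, 0, 1 and 0 melanocyte genes, and 1 regenerating myogenic and 1 smooth muscle gene were called lower at 3 DPI.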

How the data were processed

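RNA of whole TA muscle was sequenced from TruSeq libraries as 76 bp paired reads. The authors quantified transcripts with kallisto against rat build 6.0 and deposited 1 table of TPM by gene symbol for 138 libraries. The submitters' processing notes also name DESeq, without versions. TPM keeps no read depth, so that the depth behind each value is unknown. Kept libraries had 7866 to 10948 symbols above 1 TPM against 901 to 5712 in the 13 dropped. The lowest of the kept, with 7866, was the right control muscle of rat 038. Its size factor was 0.379, against 0.646, 0.691 and 0.707 in the other control muscles. Groups followed the sample labels, and 9 libraries without a clear group were left out of all comparisons.

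Libraries of 1 muscle were averaged, and log2(TPM + 1) was fitted with limma 3.58.1 in R 4.3.3 (1 mean per group, 114 muscles, 31 groups, 83 residual degrees of freedom, trended variance). Of the symbols, 11328 with a mean above 1 TPM in at least 1 group were tested, in 42 comparisons, with Benjamini-Hochberg adjustment over all genes of a comparison. Size factors, median of ratios over genes above 0 in every muscle, were applied to TPM as an alternative. Tables and plots were made with Python 3.11.15, pandas 2.3.3 and matplotlib 3.10.9. Whether repeated muscles of a group came from separate litters or surgeries is not stated, and p-values measure the spread between muscles.

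The injured and contralateral muscles of 1 rat come from the same animal by the labels. Over 34 such pairs the deviations from the group means had a mean correlation of 0.094 (-0.068 to 0.358), with 15 pairs above 0.1, and the fit with the rat as a replicate block was kept as an alternative.

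The 8 members and the gene lists were chosen with earlier results of these data known. All members are named. Some genes of the lists are not reported here by name. Of each list the called genes with the largest change against control were named, up to 4, plus genes needed to describe a result, and for each member the 3 tested genes most like it. Markers of 9 other cell types were summed per muscle. The member sequences came from RefSeq, build GRCr8. The alternatives were another pseudocount, no low filter, size factors, all libraries kept, each library as its own sample, running groups left out, a fit of the compared groups only, the mean of both control muscles of a rat, the rat number range as a covariate, fold change alone, and each muscle left out in turn in groups of 2 to 5.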

Additional observations from a re-analysis of the deposited data

Results flagged for a closer look

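Within groups of 4 to 10 muscles, 17 combinations of member and group (13.3% of those examined) had a highest or lowest muscle whose gap to its neighbour passed Dixon's 95% limit, where chance gives about 1 in 20. The contralateral muscle of rat TS5.127 (graft, 7 DPI) was the highest of 6 for Mbp (8.99 TPM), Pmp22 (32.09 TPM), Prx (3.11 TPM), Sox10 (0.54 TPM) and S100b (6.52 TPM). The non-repaired injured muscle of rat TS5.137 at 14 DPI was the highest of 4 for Mbp (14.19 TPM), Sox10 (0.98 TPM) and S100b (17.5 TPM). That of rat 073 at 28 DPI was the highest of 4 for Pmp22 (69.81 TPM) and Prx (5.87 TPM).

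The other muscles that stood apart did so for 1 member each. Mbp was 5.84 TPM in the non-repaired contralateral muscle of rat TS5.125 at 7 DPI and 4.39 TPM in the running graft muscle of rat TS5.136 at 14 DPI. Pmp22 was 163.36 TPM in the running non-repaired muscle of rat 031 at 7 DPI. Ngfr was 2.08 TPM in the graft muscle of rat 076 at 28 DPI and 1.53 TPM in that of rat 021 at 3 DPI. Gap43 was 3.37 TPM in the running graft muscle of rat 008 at 7 DPI, and Gdnf was 0.28 TPM in the left control muscle of rat 037.

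Gap43 in non-repaired injured muscle differed between days, by -1.35 on the log2 scale for 28 against 3 DPI. It was -0.96 after size factors and -0.90 without the 3 DPI muscle of rat 010, neither called. Against contralateral muscle Gap43 was 1.36 at 3 DPI and 0.89 at 28 DPI, and the difference between these was not tested.

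Among the libraries left out because their titles and labels disagreed with each other or with those of the same rat, the highest value of each member was above every control muscle. Each of these highest values came from a library titled as contralateral and labelled as VML, and the values of the others are given below. These values were 6.76 TPM for Mbp, 59.03 TPM for Pmp22, 2.73 TPM for Prx, 1.12 TPM for Ngfr, 3.17 TPM for Gap43, 0.43 TPM for Sox10, 1.3 TPM for Gdnf and 10.63 TPM for S100b.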

How the results depend on the processing

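Over all 294 fold changes of a member in a comparison, no direction of a called value turned under any alternative. The fit with the rat as a replicate block had a correlation within a rat of 0.026, so that it lay close to the main fit and could hardly change a call. All 294 kept their side of the thresholds in that fit, with no low filter and with each library as its own sample. The same held for 168 with running groups left out and 56 with control muscles averaged per rat. Size factors ended 25 calls and gained 1, all libraries kept ended 6 and gained 1, the compared groups alone ended 6, a pseudocount of 0.1 TPM gained 27, fold change alone gained 3 and the rat number range as a covariate gained 2. The causes were not tested.

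The members called in contralateral against control muscle, 3 as fitted, were 6 with the lower pseudocount and 0 with all libraries kept or with the compared groups alone. Those of graft injured against contralateral muscle were 15, and 9 after size factors. Between days the count was 1, and 2 with the lower pseudocount, 0 after size factors and 2 with the rat number range. Fold change alone gave 1 for graft against no repair, 1 for running against no running and 1 for the graft effect by running, each 0 as fitted. Leaving out each muscle in turn gave 17 to 20 for injured against control (19 as fitted), 12 to 15 for injured against contralateral (13), 1 to 3 for contralateral against control, 14 to 16 for the graft arm, 17 to 20 for running rats (18), 0 to 1 for running against no running, 0 to 0 for graft against no repair and for its interaction with running, and 1 to 2 between days. Of the single fold changes in these fits, 20 lost and 19 gained a call.

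Counts over all genes moved as well. With the lower pseudocount, calls against control were 4480 and 4258 at 14 and 28 DPI in place of 2889 and 2410, and against contralateral muscle 3850 and 2800 in place of 2385 and 1508. Contralateral against control muscle at 3 DPI gave 728 genes as fitted, 2182 with the lower pseudocount, 314 after size factors, 179 with all libraries kept and 22 with the compared groups alone. The same comparison at 7, 14 and 28 DPI gave 91, 81 and 21 genes as fitted and 28 to 4155, 2 to 484 and 0 to 249 under the alternatives. Between days, 14 against 7 DPI gave 773 genes and 287 to 1420, and 28 against 14 DPI gave 52 and 14 to 118. Graft against no repair at 7 DPI gave 10 genes, 124 with all libraries kept and 1 after size factors. At 7 DPI injured against contralateral muscle gave 5365 genes, 3529 after size factors and 8144 with all libraries kept. At 28 DPI it gave 976 after size factors, and graft injured against contralateral muscle gave 3631 with the lower pseudocount in place of 2160. Groups of 2 muscles and members near 1 TPM limit these comparisons, and the read depth behind them is unknown.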

Other observations

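The 9 libraries left out of all comparisons had titles and labels that disagreed with each other or with those of the same rat. Of these, 8 were of 4 running rats at 28 DPI, with titles that contradicted the injury labels, and they are given here by title. In the 4 libraries titled as injured and labelled as without VML, Pmp22 was 12.6 to 16.8 TPM (median 14.4), S100b 1.00 to 3.09 TPM, Mbp 1.53 to 4.17 TPM, Gap43 0.43 to 0.73 TPM and Ngfr 0.18 to 0.41 TPM. In the 4 titled as contralateral and labelled as VML, Pmp22 was 39.6 to 59.0 TPM (median 40.7), S100b 6.25 to 10.6 TPM, Mbp 2.96 to 6.76 TPM, Gap43 1.84 to 3.17 TPM and Ngfr 0.78 to 1.12 TPM. Prx was 1.24 to 1.74 and 1.83 to 2.73 TPM, Sox10 0.12 to 0.23 and 0.28 to 0.43 TPM, and Gdnf 0 to 0.22 and 0.3 to 1.3 TPM in the same order. The remaining library, the contralateral one of rat 011, which carried another day than its rat's other libraries, held 30.8 TPM of Pmp22, 7.88 TPM of S100b, 5.0 TPM of Mbp, 2.4 TPM of Prx, 1.61 TPM of Gap43, 0.61 TPM of Ngfr, 0.29 TPM of Sox10 and 0 TPM of Gdnf.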
